A study of Rattus norvegicus with 24 samples.

Results

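Forebrain transcripts were compared between 4 male F344 rats given a single dose of 20 mg/kg D-serine and 4 given a single dose of 200 mg/kg, with no vehicle array in the comparison. The 8 arrays were chosen by the dose in their labels, out of 24 in the series, which has 4 arrays each for vehicle and for 5, 20, 50, 200 and 500 mg/kg. All rats were 11 to 12 weeks old and were killed 96 h after dosing. Total RNA came from a small piece of forebrain, 1 rat and 1 Affymetrix array each, and the labels do not say which part of the forebrain a piece held. The rats of the 20 mg/kg group carry the animal numbers 262 to 266 and those of the 200 mg/kg group 253 to 256, so any order of handling that followed these numbers cannot be told apart from the dose.

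D-serine is the D-form of the amino acid serine and binds, as glycine does, to the co-agonist site of the NMDA receptor, the glutamate-gated calcium channel that drives much of the plasticity of forebrain synapses. It is made from L-serine by serine racemase, taken up by the neutral amino acid exchangers Slc1a4 and Slc7a10, and broken down by D-amino acid oxidase. In rats, high doses are known to be toxic to the kidney.

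Levels are given as log2(intensity + 16) after quantile normalization, and differences as 20 minus 200 mg/kg on that scale. One 500 mg/kg array was left out before normalization, which left 23 arrays in the fit. On that array a probe set of Gabra6, a GABA-A receptor subunit of cerebellar granule cells, had a deposited intensity of 1588, against at most 53.4 on the other 23. All 8 arrays compared here were alike in their profile over the 18625 tested probe sets. Correlations were 0.949 to 0.974 between the groups, 0.963 to 0.982 within the 20 mg/kg group and 0.968 to 0.981 within the 200 mg/kg group. Their deposited brightness differed: the median intensity lay between 69.1 and 103.8 on the 20 mg/kg arrays and between 58.4 and 68.4 on the 200 mg/kg arrays (exact two-sided permutation p = 0.0286, the smallest that 4 against 4 arrays allow).

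The 3'/5' ratios of control transcripts also differed between the groups. The arrays carry probe sets at the 3' and 5' ends of control transcripts, and since copying starts at the 3' end, the ratio between them grows where transcripts are broken or incompletely copied. For beta-actin the log2 ratio was 1.60, 1.57, 1.50 and 1.85 on the 20 mg/kg arrays, against 2.65, 2.41, 2.42 and 2.23 on the 200 mg/kg arrays, with means of 1.63 ± 0.15 and 2.43 ± 0.17 (SD, n = 4 each; exact two-sided permutation p = 0.0286, adjusted p over 3 ratios = 0.0429). For Gapdh it was 0.15, 0.19, 0.17 and 0.26 at 20 mg/kg, against 0.74, 0.71, 0.47 and 0.34 at 200 mg/kg (0.19 ± 0.05 and 0.56 ± 0.19; exact permutation p = 0.0286, adjusted p = 0.0429). In neither transcript did the groups overlap. The hexokinase ratio was 1.58 ± 0.16 at 20 mg/kg and 1.93 ± 0.25 at 200 mg/kg, with overlapping arrays (SD, n = 4 each; exact permutation p = 0.0571, adjusted p = 0.0571). Across the series the beta-actin ratio averaged 2.50 ± 0.18 in vehicle rats, 1.70 ± 0.15 at 5, 1.63 ± 0.15 at 20, 1.86 ± 0.06 at 50, 2.43 ± 0.17 at 200 and 2.38 ± 0.18 at 500 mg/kg (SD). The vehicle and 500 mg/kg arrays therefore lay with the 200 mg/kg arrays in this measure, and the 5 mg/kg arrays with the 20 mg/kg arrays.

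**Figure D1:**
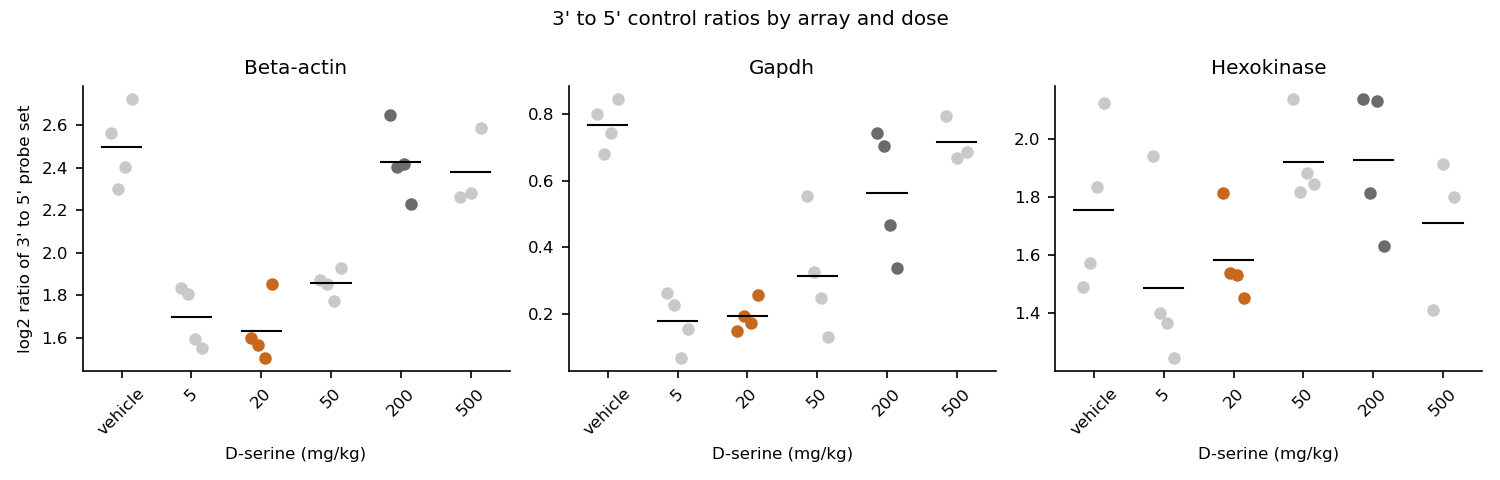
Control transcripts beta-actin, Gapdh and hexokinase, plotted for each array as the log2 of the signal at the 3' end over that at the 5' end, by D-serine dose; points are arrays, bars are group means, with 20 mg/kg in orange and 200 mg/kg in dark grey. The 20 mg/kg arrays lay between 1.50 and 1.85 for beta-actin and the 200 mg/kg arrays between 2.23 and 2.65.

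Among the genes higher at 20 than at 200 mg/kg were Syt1 (the calcium sensor of transmitter release), the AMPA receptor partners Cacng3, Cacng8 and Frrs1l, and Rasgrp1 (a Ras activator). Among those lower at 20 mg/kg were 5 of 30 tested genes listed under splicing and 2 of 25 listed under chromatin regulators. The 5 tested NMDA receptor genes and the 10 tested for D-serine handling gave no call, as was so for most genes. Of 18625 probe sets tested, 577 passed an adjusted p of 0.05 in limma, which is 3.1% of those tested, with 413 higher (2.22%) and 164 lower (0.881%) at 20 mg/kg. Each of 10207 genes was then represented by its brightest probe set. On that level 84 genes rose (0.823%) and 72 fell (0.705%), and 2 of the rises and 0 of the falls exceeded 2-fold. These counts depended on single arrays: 26 rose and 17 fell without replicate 1 of the 200 mg/kg group, 28 and 18 without its replicate 2, and 55 and 41, 40 and 30, and 28 and 30 without replicates 1, 2 and 3 of the 20 mg/kg group. With 1 probe set per gene tested, 36 rose and 28 fell. The median difference was 0.47 among the genes that rose, -0.40 among those that fell and -0.01 over all genes. For 142 of the 156 genes called the 4 and 4 arrays did not overlap, a pattern shown by 770 of all genes (7.54%). On the deposited intensities without normalization between arrays, the median probe set shifted by 0.41, and 99.9% of the calls were higher at 20 mg/kg, against 71.6% after normalization.

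No call remained when an RNA ratio was added to the model. With the Gapdh or the beta-actin ratio of each array as a covariate, limma called 0 probe sets at an adjusted p of 0.05, while 1188 and 934 had an unadjusted p under 0.05, against 3038 without a covariate. Of the 156 genes called, 155 kept their direction with the Gapdh ratio and 150 with the beta-actin ratio. Since these genes were picked on the same arrays, a kept direction was favoured from the outset. Their median difference in the called direction was 0.28 with either ratio, against 0.43 without. The median standard error of these genes was 0.13 with the Gapdh ratio and 0.20 with the beta-actin ratio, against 0.10 without. Since both ratios separated the groups without overlap, dose and RNA ratio cannot be told apart in these arrays. The loss of calls therefore cannot decide between them.

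The largest rise was that of Cyria, whose product binds the small GTPase Rac1 and restrains actin branching. Its level was 7.50, 7.37, 7.54 and 7.11 at 20 mg/kg, against 5.77, 6.31, 6.62 and 6.62 at 200 mg/kg, a difference of 1.05 ± 0.20 (SE), or 2.07-fold (limma, adjusted p = 0.00395). Syt1 encodes synaptotagmin 1, the calcium sensor that triggers fast vesicle fusion. It measured 10.08, 10.19, 10.14 and 9.86 at 20 mg/kg and 8.56, 8.70, 9.46 and 9.41 at 200 mg/kg, a 2.05-fold rise (1.04 ± 0.20, adjusted p = 0.00395, limma). In both genes every 20 mg/kg array lay above every 200 mg/kg array, and the 200 mg/kg arrays spread more widely. With the Gapdh ratio as a covariate the Syt1 difference was 0.24 and the Cyria difference 0.44, neither called.

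Rasgrp1, a Ras activator that responds to diacylglycerol and calcium, had levels of 8.74, 8.96, 9.16 and 8.95 at 20 mg/kg against 7.68, 8.03, 8.39 and 8.27 at 200 mg/kg. The rise was 1.81-fold (0.86 ± 0.15, limma adjusted p = 0.0027), and a further Rasgrp1 probe set rose by 0.71. Svop, a transporter-like protein of synaptic vesicles, measured 8.19, 8.63, 8.53 and 8.12 at 20 mg/kg and 7.41, 7.38, 7.86 and 7.59 at 200 mg/kg (0.81 ± 0.14, 1.75-fold, limma adjusted p = 0.0022). Rgs5, which shuts off G protein signals and marks pericytes, measured 7.57, 7.75, 7.87 and 7.48 at 20 mg/kg and 6.90, 6.95, 6.59 and 7.23 at 200 mg/kg (0.75 ± 0.12, 1.68-fold, limma adjusted p = 0.00158). The groups did not overlap in any of these 3 genes. In a block of whole tissue, fewer cells of a type and less RNA per cell cannot be told apart, and of the 9 mural cell genes tested Rgs5 alone passed.

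The other large rises were between 0.65 and 0.82. They were Cnbd2, Snapc5 (a subunit of the complex that starts small nuclear RNA transcription), Msra (a reductase of oxidised methionine), Sprn (the prion-related Shadoo), Akirin2, Necab1 (a neuronal calcium-binding protein), Syt13, Cacng3, Frrs1l and Ighmbp2 (a helicase). Snapc5 was the most even of them at 20 mg/kg, with 7.28, 7.25, 7.25 and 7.27, against 6.31, 6.22, 6.71 and 6.91 at 200 mg/kg, and its other probe set rose by 0.92. The other probe set of Cnbd2 differed by only 0.11 (limma adjusted p = 0.754). Arl1, an Arf-like GTPase of the Golgi, had the smallest p of all genes: 9.26, 9.29, 9.31 and 9.08 at 20 mg/kg against 8.59, 8.51, 8.76 and 8.80 at 200 mg/kg (0.57 ± 0.09, limma adjusted p = 0.00133). In that probe set the Arl1 groups lay apart with little spread, as did those of Prepl, a serine hydrolase of vesicle traffic (0.59 ± 0.10, limma adjusted p = 0.00206). The other Arl1 probe set differed by only 0.21, with overlapping groups (limma adjusted p = 0.194). Of the 15 largest rises, 6 missed the threshold when 1 array was left out. Cnbd2, Necab1, Syt13, Cacng3 and Frrs1l had their largest adjusted p, 0.0618 to 0.194, without replicate 1 of the 200 mg/kg group, and Ighmbp2 had 0.149 without replicate 2 of it (limma).

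**Figure D2:**
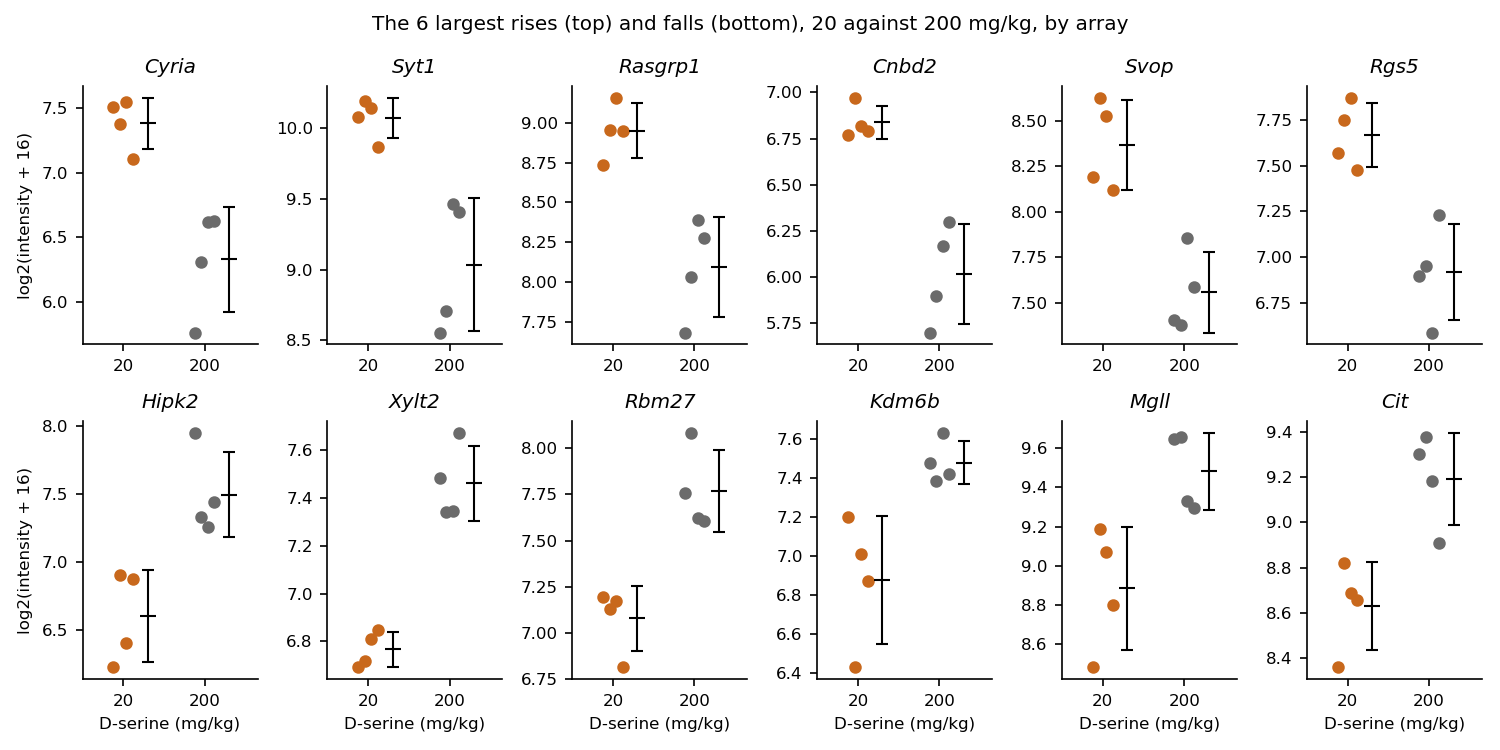
Levels on each array, as log2(intensity + 16), of the 6 genes with the largest rises (top row) and the 6 with the largest falls (bottom row) at 20 against 200 mg/kg; orange points are 20 mg/kg arrays, grey points 200 mg/kg arrays, the bar beside them is the mean ± SD (n = 4 each), and each panel has its own scale. The groups do not overlap in any of the 12 genes.

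The largest fall was that of Hipk2, a nuclear kinase that acts on transcription factors. It measured 6.23, 6.90, 6.41 and 6.88 at 20 mg/kg against 7.95, 7.33, 7.26 and 7.44 at 200 mg/kg, so that the 200 mg/kg level was 1.86-fold that at 20 mg/kg (-0.89 ± 0.18, limma adjusted p = 0.00672). Kdm6b, a demethylase of the repressive mark on histone H3 lysine 27, measured 7.20, 6.43, 7.01 and 6.87 at 20 mg/kg and 7.48, 7.38, 7.63 and 7.42 at 200 mg/kg (-0.60 ± 0.12, limma adjusted p = 0.00713). Mgll, the lipase that ends signalling by the endocannabinoid 2-arachidonoylglycerol, measured 8.48, 9.19, 9.07 and 8.80 at 20 mg/kg and 9.65, 9.66, 9.33 and 9.29 at 200 mg/kg (-0.60 ± 0.12, limma adjusted p = 0.00747). All 3 separated the groups without overlap, but the other Mgll probe sets differed by only -0.12 and -0.19 and did not pass. With the Gapdh ratio as a covariate the differences were -0.45 for Hipk2, -0.67 for Kdm6b and -0.47 for Mgll, none of them called.

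The other large falls were between -0.69 and -0.50. They were Xylt2 (an enzyme of proteoglycan synthesis), Rbm27, Cit (citron kinase), Tor1aip1 (of the inner nuclear membrane), Cxxc5, Donson (a DNA replication factor), Gatad2b (of the NuRD chromatin complex), Rbfox3 (the neuronal splicing regulator NeuN), Msantd2, Mdga2 (an adhesion protein that binds neuroligins), Nfkb1 and Srrm2. In Tor1aip1, Cxxc5 and Gatad2b the arrays of the groups overlapped. Further probe sets of Xylt2 (-0.09 and 0.15), Tor1aip1 (-0.07) and Rbfox3 (-0.08) showed little of the fall. Khsrp, which promotes decay of AU-rich messages, and Aplp1, a relative of the amyloid precursor protein, had the smallest p among the falls: -0.45 ± 0.08 and -0.42 ± 0.07 (limma adjusted p = 0.00193 for each). Aplp1 measured 10.41, 10.37, 10.42 and 10.59 at 20 mg/kg against 10.95, 10.85, 10.73 and 10.93 at 200 mg/kg. Its arrays did not overlap, and on the deposited scale its difference of 0.03 lay below the 0.41 by which that scale shifts the median probe set. Of the 15 largest falls, 10 missed the threshold in limma without 1 array. Xylt2, Tor1aip1 and Rbfox3 had their largest adjusted p, 0.0782 to 0.152, without replicate 1 of the 200 mg/kg group. Rbm27, Cit, Cxxc5, Gatad2b, Msantd2 and Nfkb1 had 0.0925 to 0.192 without replicate 2 of it, and Donson had 0.145 without replicate 1 of the 20 mg/kg group.

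The receptor that D-serine acts on gave no call. All 7 NMDA receptor subunit genes had a probe set, 5 were bright enough to test, and 0 passed in limma. Over all genes 0.823% rose and 0.705% fell, so 0 calls among 5 genes do not set the receptor apart. By the brightest probe set, Grin3a alone had an unadjusted p under 0.05. Grin1, the obligatory subunit that holds the co-agonist site, measured 9.085, 8.997, 8.961 and 8.748 at 20 mg/kg and 8.785, 8.999, 8.958 and 8.748 at 200 mg/kg, a difference of 0.08 ± 0.11. Grin2a differed by -0.22 ± 0.14, Grin2b by 0.15 ± 0.12, Grin2c by -0.11 ± 0.10 and Grin3a by -0.43 ± 0.18 (limma adjusted p of 0.235 to 0.804). The dimmer probe set of Grin1 pointed the other way, at -0.37 ± 0.17 (limma unadjusted p = 0.0423, adjusted p = 0.283). The probe sets of Grin2a pointed both ways too, with further ones at 0.47 and 0.06.

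D-serine handling gave no call either. Of 15 genes listed, 10 could be tested and 0 passed in limma, 2 with an unadjusted p under 0.05, and the median was -0.10. At the shares called over all genes, 0.823% higher and 0.705% lower, 0 calls among 10 genes are no particular trait of this list. Slc1a4 differed by 0.09 ± 0.20 and Slc7a10 by -0.12 ± 0.14, and the largest difference was that of Slc38a2, a neutral amino acid transporter, at -0.35 ± 0.12 (limma adjusted p = 0.131). Dao, the oxidase that degrades D-serine, was below the brightness limit in both groups, with levels of 4.06 to 4.10 at 20 mg/kg and 4.04 to 4.36 at 200 mg/kg, and serine racemase was not analysed here. Among 14 tested genes that neuronal activity is known to induce within hours, 0 passed and 1 had an unadjusted p under 0.05: Fos differed by -0.58 ± 0.30, Arc by -0.13 ± 0.20, Bdnf by -0.04 ± 0.25 and Egr1 by -0.44 ± 0.17 (limma adjusted p of 0.185 to 0.966).

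Beyond the NMDA receptor, 3 of 15 tested AMPA and kainate receptor genes rose and 0 fell, where 0.823% and 0.705% of all genes did. The 3 are not channel subunits but partners: Cacng3 and Cacng8, which escort AMPA receptors to the membrane and shape their gating, and Frrs1l, which assists their assembly. Cacng8 measured 7.11, 6.75, 6.79 and 6.76 at 20 mg/kg and 6.32, 5.63, 6.56 and 6.30 at 200 mg/kg (0.65 ± 0.17, limma adjusted p = 0.036). Frrs1l measured 7.41, 7.36, 7.29 and 7.25 at 20 mg/kg and 6.47, 6.81, 6.55 and 6.87 at 200 mg/kg (0.65 ± 0.17, limma adjusted p = 0.0365). Cacng3 measured 8.292, 8.998, 8.981 and 8.592 at 20 mg/kg and 7.711, 7.826, 8.340 and 8.336 at 200 mg/kg (0.66 ± 0.18, limma adjusted p = 0.0456). The arrays of Cacng3 overlapped and those of the other two did not, and without replicate 1 or 2 of the 200 mg/kg group the adjusted p of the 3 genes reached 0.144 to 0.194. The other 12 lay between -0.39 and 0.17, with the 4 channel subunits Gria1 to Gria4 between -0.28 and -0.17, so the list's median was -0.07. With the Gapdh ratio as a covariate the differences were 0.34 for Cacng8, 0.36 for Frrs1l and 0.26 for Cacng3, none called.

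Of 27 tested genes of vesicle release and recycling 2 rose, Syt1 and Svop, where 0.823% of all genes rose. The median of the list was 0.05. Sh3gl2, the endophilin that bends membrane for vesicle retrieval, measured 8.23, 7.91, 8.06 and 7.81 at 20 mg/kg and 6.77, 7.26, 7.77 and 7.51 at 200 mg/kg, and its 1.6-fold difference just missed the threshold (limma adjusted p = 0.054). Snap25, Syp, Syn1 and Rab3a, named after their values were seen, lay between -0.05 and 0.04. They do not stand for the list: its 25 uncalled members ranged from -0.31 to 0.67. In limma 8 of the 27 had an unadjusted p under 0.05. Inhibitory synapses contributed Gabra4, a GABA-A receptor subunit, which rose by 0.59 ± 0.13 (limma adjusted p = 0.0117), as 1 of 8 tested. Of 21 potassium channel genes 1 rose, Kcnq3, a subunit of the M current, by 0.52 ± 0.11 (limma adjusted p = 0.012), while its other probe set differed by 0.07. Without 1 array the largest adjusted p was 0.0673 for Gabra4, without replicate 2 of the 200 mg/kg group, and 0.0572 for Kcnq3, without replicate 3 of the 20 mg/kg group. In the fit with the Gapdh ratio added, which called none of them, Svop differed by 0.56, Gabra4 by 0.26 and Kcnq3 by 0.50.

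On the postsynaptic side changes ran both ways, where 0.823% of all genes rose and 0.705% fell. Among 13 scaffold genes Dlg2, the scaffold PSD-93, rose by 0.54 ± 0.15 (limma adjusted p = 0.0441) and Shank1 fell by 0.40 (SE 0.11, limma adjusted p = 0.0463), though 2 further Shank1 probe sets stood at 0.13 each. Among 15 genes of calcium/calmodulin kinases and calcineurin, Rcan1, a calcium-induced inhibitor of calcineurin, rose and Camk2a, the main kinase of the postsynaptic density, fell. Rcan1 measured 7.73, 7.67, 7.83 and 8.04 at 20 mg/kg against 7.35, 7.26, 7.42 and 7.47 at 200 mg/kg (0.45 ± 0.10, limma adjusted p = 0.0146). Camk2a measured 11.39, 11.58, 11.64 and 11.72 at 20 mg/kg against 11.87, 12.05, 11.86 and 11.99 at 200 mg/kg (-0.36 ± 0.10, limma adjusted p = 0.0454). In these probe sets neither gene's groups overlapped. The further tested probe sets of Camk2a were at -0.25 and -0.42. One too dim to be tested went the other way, at 6.07 to 6.29 at 20 mg/kg and 5.73 to 6.03 at 200 mg/kg. When each of the 8 arrays was left out in turn, Dlg2 was called in 0 of the 8 fits, Shank1 in 1, Camk2a in 2 and Rcan1 in 6. Their differences there were 0.46 to 0.59 for Dlg2, -0.46 to -0.35 for Shank1, -0.41 to -0.30 for Camk2a and 0.37 to 0.49 for Rcan1. The largest adjusted p was 0.123 for Dlg2 without replicate 3 of the 20 mg/kg group, and 0.182 for Shank1, 0.0697 for Rcan1 and 0.166 for Camk2a without replicate 2 of the 200 mg/kg group. On the deposited scale Shank1 and Camk2a each stood at 0.04, below the median shift of 0.41 on that scale. With the Gapdh ratio as a covariate the differences were 0.67 for Dlg2, -0.20 for Shank1, 0.44 for Rcan1 and -0.21 for Camk2a, none called.

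Genes listed under RNA splicing leaned towards lower levels at 20 mg/kg. Of 30 tested, 5 fell, 0 rose, and 24 were below 0, with a median of -0.14 against -0.01 over all genes. Over all genes 0.705% fell and 0.823% rose. The falls were Rbm27 (-0.69 ± 0.17), Srrm2 (-0.50 ± 0.09), the kinase of splicing factors Clk4 (-0.43 ± 0.09), the RNA helicase Ddx5 (-0.35 ± 0.07) and the splicing factor Srsf2 (-0.23 ± 0.06), with limma adjusted p of 0.00402 to 0.0402. Srrm2, a scaffold protein of nuclear speckles, measured 10.59, 10.38, 10.32 and 10.52 at 20 mg/kg and 11.10, 11.03, 10.93 and 10.73 at 200 mg/kg. Ddx5 measured 10.92, 11.00, 10.93 and 11.11 at 20 mg/kg and 11.41, 11.38, 11.22 and 11.32 at 200 mg/kg. In these probe sets neither gene's arrays overlapped. The second Srrm2 probe set differed by -0.24, with overlapping arrays (limma adjusted p = 0.147). The second Ddx5 probe set showed no fall (-0.01) and that of Srsf2 lay at 0.19. On the deposited scale Ddx5 was at 0.09, Srsf2 at 0.22 and the list's median at 0.29, all below the median shift of 0.41 on that scale. Rbm27 had an adjusted p of 0.112 without replicate 2 of the 200 mg/kg group, and Srsf2 0.155 without replicate 1 of it. The list of chromatin regulators leaned the same way: 2 of 25 fell, 0 rose and 21 were below 0, with a median of -0.11. The falls were Kdm6b and Hipk2, the latter a kinase that acts on transcription factors. Both lists were drawn up when nuclear genes were already known to be lower in this series at low doses, so their direction is not independent evidence. Of the splicing genes, the Gapdh covariate left differences of -0.37 for Rbm27, -0.24 for Srrm2, -0.40 for Clk4, -0.25 for Ddx5 and -0.15 for Srsf2, none called.

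**Figure D3:**
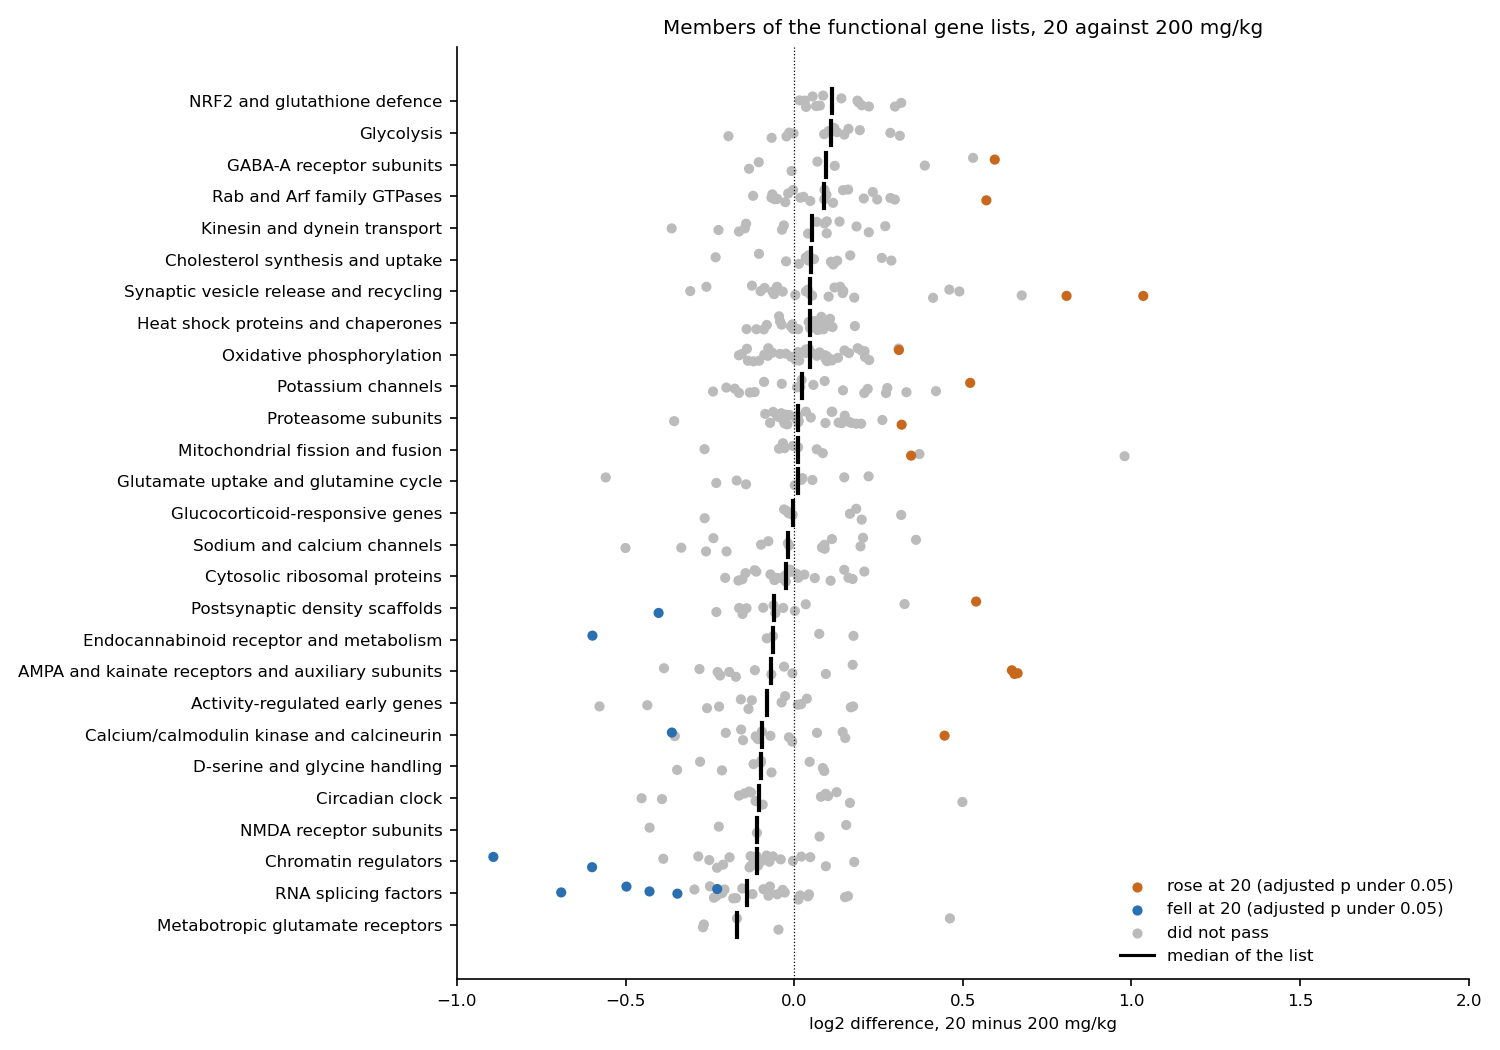
Log2 difference, 20 minus 200 mg/kg, of each tested member of 27 functional gene lists, sorted by the list's median (black bar); orange and blue points rose or fell in limma, grey points did not pass. The AMPA and kainate receptor list has 3 orange points near 0.65 and a median of -0.07, and the splicing list has 5 blue points and a median of -0.14.

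Lists of energy supply and protein turnover held at most 1 call each, where 0.823% of all genes rose. Of 38 oxidative phosphorylation genes 1 rose, the ATP synthase subunit Atp5pb (0.31 ± 0.08, limma adjusted p = 0.0247), and of 30 proteasome genes Psmd8 alone (0.32 ± 0.07, limma adjusted p = 0.00891). Dnm1l, the GTPase that cuts mitochondria, rose by 0.35 ± 0.09 (limma adjusted p = 0.0247) as 1 of 11 fission and fusion genes. The 10 uncalled members of that list ranged from -0.27 to 0.98. In limma 4 of the 11, Dnm1l included, had an unadjusted p under 0.05. Without 1 of replicates 1 and 2 of the 200 mg/kg group the largest adjusted p was 0.124 for Atp5pb, 0.124 for Dnm1l and 0.0576 for Psmd8. By the brightest probe set, 0 members passed in limma in the glycolysis, ribosomal protein, chaperone, glutathione defence, cholesterol and glucocorticoid-responsive lists. The same held for the circadian clock, kinesin and dynein, metabotropic glutamate receptor, sodium and calcium channel and glutamate uptake lists. In each of these lists 1 to 7 members had an unadjusted p under 0.05, except among the chaperones, with 0. A dimmer probe set of the kinesin Kif5c was called, however, at 0.80 ± 0.15 (limma adjusted p = 0.00302), while another stood at -0.19. Within glutathione defence all 14 tested members lay above 0, with a median of 0.11 against -0.01 over all genes. The smallest p among them was that of the peroxiredoxin Prdx6 (0.32 ± 0.11, limma adjusted p = 0.139).

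Markers of other cells moved with single arrays. Ttr, the transthyretin made by choroid plexus, measured 6.65, 5.88, 6.15 and 5.97 at 20 mg/kg against 12.63, 6.51, 6.62 and 12.85 at 200 mg/kg. Replicates 1 and 4 of the 200 mg/kg group were thus far above all the others, and the difference of -3.49 ± 1.49 did not pass (limma adjusted p = 0.231). The mean level of the choroid plexus list was 6.53 to 6.70 at 20 mg/kg and 6.70 to 8.89 at 200 mg/kg, and its 7 tested members had a median of -1.16. Without both of these arrays, an alternative added after the data were seen, 214 probe sets were called, 27 genes higher and 20 lower. All 156 genes kept their direction there, with a median difference of 0.43 in it. They had been called with these arrays included, and for 142 of them the groups did not overlap. Leaving out arrays could thus hardly turn their direction, and the kept direction says nothing about choroid plexus tissue.

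Myelin genes lay below 0 without a call. All 14 tested markers of myelinating oligodendrocytes were below 0, with a median of -0.44 and a range of -1.26 to -0.11, none passed in limma, 4 with an unadjusted p below 0.05; without the 2 arrays high in Ttr the median was -0.21. The list's mean level was 8.80, 9.51, 9.49 and 9.44 at 20 mg/kg against 10.11, 10.06, 9.06 and 10.07 at 200 mg/kg, so replicate 3 of the 200 mg/kg group overlapped the 20 mg/kg arrays. Lpar1 (-0.69 ± 0.24) and Opalin (-0.84 ± 0.36) had limma adjusted p of 0.126 and 0.236. The part of myelin or choroid plexus in the calls above was not tested beyond leaving out those 2 arrays.

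Haemoglobin pointed the other way. Hbb measured 12.10, 11.41, 11.31 and 11.18 at 20 mg/kg against 9.61, 9.85, 9.94 and 12.34 at 200 mg/kg (1.06 ± 0.40, limma adjusted p = 0.16), and replicate 4 of the 200 mg/kg group was the highest of all. As a check of the forebrain label, Gabra6 was dim, at 5.26 to 5.80 at 20 mg/kg and 5.15 to 5.80 at 200 mg/kg in its brighter probe set, while Camk2a and Nrgn, genes of forebrain excitatory neurons, were bright, Nrgn at 10.91 to 11.78 at 20 mg/kg and 11.13 to 11.63 at 200 mg/kg. Of 7 tested members of the cerebellar granule and Purkinje cell list 6 were above 0, with a median of 0.22, and 0 passed in limma. Pcp2, a Purkinje cell gene, had the smallest p of them (0.51, limma adjusted p = 0.0613) and alone had an unadjusted p under 0.05. The mean level of that list was 6.82 to 7.24 at 20 mg/kg and 6.72 to 7.01 at 200 mg/kg, and its part in the calls was not tested. The mean level of 18 excitatory neuron markers was 8.78 to 8.91 at 20 mg/kg and 8.84 to 8.93 at 200 mg/kg, with Camk2a as the 1 call. That of 13 striatal markers ranged widely within both groups, 7.39 to 9.10 at 20 mg/kg and 7.43 to 8.81 at 200 mg/kg, and 0 of them passed in limma, 1 with an unadjusted p under 0.05. Astrocyte, microglia, endothelial, interneuron, thalamic and meningeal lists also had 0 calls in limma, with at most 2 members each at an unadjusted p under 0.05. Gfap, the astrocyte filament, differed by 0.07 ± 0.20, and Tmem119, a microglia marker, by 0.49 ± 0.14 (limma adjusted p = 0.0529).

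The rats given 5 and 500 mg/kg offered the same kind of contrast on arrays that the comparison above did not use, although all were normalized and fitted together. The RNA ratios differed in the same direction there. In 5 minus 500 mg/kg, 357 probe sets were called, and 59 genes rose (0.578%) and 36 fell (0.353%). Of the 84 genes that rose at 20 against 200 mg/kg, 83 were also above 0 in 5 minus 500 and 31 were called. Of the 72 that fell, 67 were also below 0 and 8 were called. No gene was called in opposite directions, and the same sign held for 96.2% of the called genes, against 66.4% of all genes. The median in 5 minus 500 was 0.36 for the genes that rose and -0.19 for those that fell.

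Rasgrp1 was 1.01 higher at 5 than at 500 mg/kg (limma adjusted p = 0.00232), Cyria 0.88 (0.0319), Syt1 0.82 (0.044), Svop 0.61 (0.0328), Rgs5 0.73 (0.00543), Arl1 0.58 (0.00338), Prepl 0.55 (0.00899) and Frrs1l 0.95 (0.00713). Camk2a (-0.48, limma adjusted p = 0.0194) and Khsrp (-0.37, limma adjusted p = 0.0203) were lower. Other genes had the same sign in 5 minus 500 mg/kg but were not called there: Cacng8 stood at 0.12, Rcan1 at 0.23 ± 0.11, Kdm6b at -0.10, Rbm27 at -0.08 and Clk4 at -0.02 (limma). Whether these differences are smaller than those in 20 minus 200 mg/kg was not tested.

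**Figure D4:**
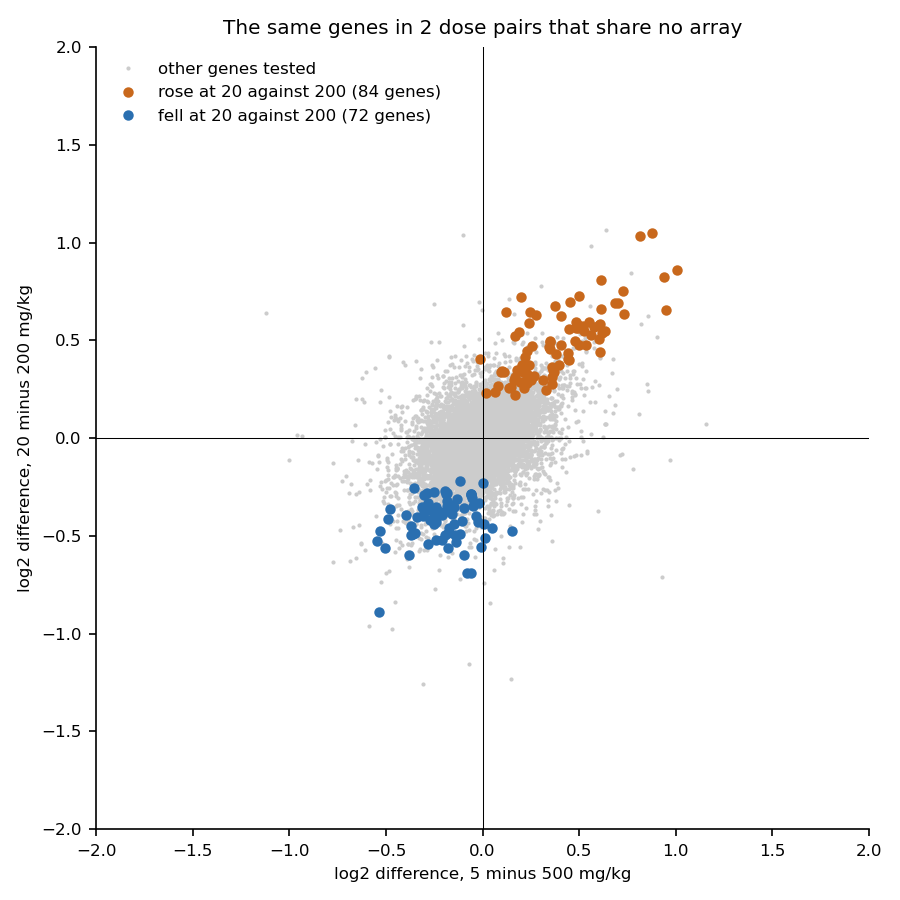
Log2 difference of each tested gene in 20 minus 200 mg/kg (vertical) and in 5 minus 500 mg/kg (horizontal), comparisons that share no array; orange and blue points are the 84 genes that rose and the 72 that fell at 20 against 200 mg/kg, and 1 gene lies outside the plotted range. Most coloured points lie in the upper right and lower left, 83 and 67 of them by sign.

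The levels did not follow the order of the doses. Syt1 averaged 8.49 ± 0.19 in vehicle rats, 9.75 ± 0.28 at 5, 10.07 ± 0.14 at 20, 9.62 ± 0.42 at 50, 9.03 ± 0.47 at 200 and 8.93 ± 0.14 at 500 mg/kg (SD, n = 4, at 500 mg/kg n = 3). Hipk2 averaged 7.79 ± 0.19 in vehicle rats, 6.81 ± 0.13 at 5, 6.60 ± 0.34 at 20, 7.38 ± 0.33 at 50, 7.50 ± 0.31 at 200 and 7.35 ± 0.27 at 500 mg/kg. In both genes the vehicle mean lay on the side of the 200 mg/kg mean. For 83 of the 84 genes that rose and 70 of the 72 that fell, the vehicle mean was nearer to the 200 than to the 20 mg/kg mean. The 500 mg/kg mean was nearer to 200 mg/kg for 80 and 67 genes. The 5 mg/kg mean was nearer to 20 mg/kg for 78 of 84 and 55 of 72, and the 50 mg/kg mean for 51 and 34. Over all genes, 35.1% had the vehicle mean nearer to 20 mg/kg, 60.1% the 5, 51.6% the 50 and 36.4% the 500 mg/kg mean. The 5 mg/kg group, near to the 20 mg/kg group in these genes, was also near to it in the beta-actin and Gapdh ratios. The 50 mg/kg group was nearer to it in both ratios, but for only 34 of the 72 genes that fell. Hexokinase ratios averaged 1.76 in vehicle rats, 1.49 at 5, 1.58 at 20, 1.92 at 50, 1.93 at 200 and 1.71 at 500 mg/kg. The animal numbers of the fitted arrays were 243 to 246 for vehicle, 247 to 249 at 500 and 253 to 256 at 200 mg/kg. They were 257 to 261 at 50, 262 to 266 at 20 and 267 to 271 at 5 mg/kg. The vehicle, 500 and 200 mg/kg rats thus came first in this numbering. Whether any ratio, or an order of handling that followed these numbers, accounts for these positions was not tested.

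Most of the rises at the level of probe sets came from the dimmer probe sets of genes that have several. Of 3466 such dimmer probe sets, 255 were higher at 20 mg/kg (7.36%) and 29 lower (0.837%). Of 2625 probe sets that were the brightest of several, 25 were higher (0.952%) and 32 lower (1.22%), and of 7582 that were the only one of their gene, 59 were higher (0.778%) and 40 lower (0.528%). The 255 dimmer ones belonged to 240 genes and had a median difference of 0.60, while the brightest probe set of the same gene had a median of 0.06, was called higher for 6 and was below 0 for 83. In 5 minus 500 mg/kg 177 dimmer probe sets were higher and 12 lower. Where each probe set lies along its transcript was not analysed here.

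The dimmer probe sets with the largest differences and smallest p, chosen after their values were seen, show the pattern gene by gene. A dim probe set of Prkacb, a catalytic subunit of protein kinase A, measured 8.40, 8.41, 8.48 and 8.05 at 20 mg/kg against 6.07, 6.52, 6.78 and 7.49 at 200 mg/kg (1.62 ± 0.26). The bright Prkacb probe set measured 11.53, 11.79, 11.69 and 11.53 at 20 mg/kg against 11.68, 11.53, 11.52 and 11.36 at 200 mg/kg (0.11 ± 0.08). The first separated the groups widely and in the second they overlapped. For Cplx1, the complexin that clamps vesicle fusion, the dim probe set measured 8.69, 8.92, 8.79 and 8.73 at 20 mg/kg against 7.87, 7.84, 7.98 and 7.90 at 200 mg/kg (0.89 ± 0.09), the smallest p of all probe sets (limma adjusted p = 4.93e-05). Its bright probe set differed by 0.14 ± 0.09 (limma adjusted p = 0.494). Lingo1, which inhibits axon growth and myelination, showed 1.71 ± 0.28 in the dim and -0.17 ± 0.11 in the bright probe set. Vps41 showed 1.40 and 0.26, Plekhb2 1.25 and 0.27, Aak1 1.20 and 0.09, and Ppp2r1a 1.07 and 0.19. In none of these did the bright probe set pass.

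**Figure D5:**
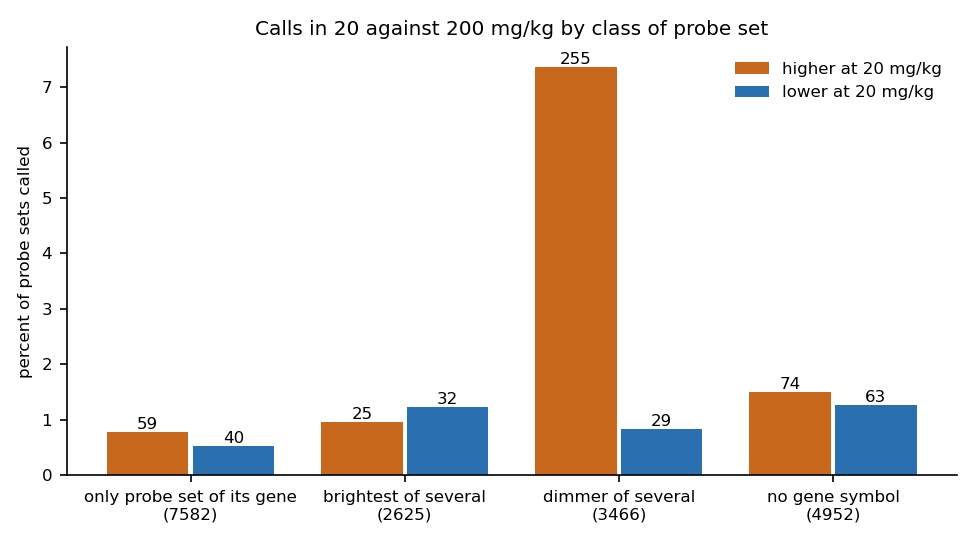
Percent of tested probe sets called higher (orange) or lower (blue) at 20 against 200 mg/kg, by class of probe set, with the number called above each bar and the number tested below each class. The dimmer probe sets of genes with several stand out, with 255 of 3466 higher and 29 lower.

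Promoters were searched for short motifs, since NMDA receptor calcium signals reach the nucleus in part through CREB, which binds the palindrome TGACGTCA. RefSeq promoters of the GRCr8 build, 250 bases before to 50 after the start of each gene, were matched for 65 of the 84 genes that rose and 58 of the 72 that fell. The palindrome was present in 3.08% of the promoters of genes that rose (2 genes, Snapc5 and Rcan1) and in 1.72% of those of genes that fell, against 3.32% of the 8515 promoters of tested genes. Both shares are near or below the background and single out neither group. The 2 promoters are shown with the match in capitals:
Snapc5, chr8:73572253-73572552, + strand: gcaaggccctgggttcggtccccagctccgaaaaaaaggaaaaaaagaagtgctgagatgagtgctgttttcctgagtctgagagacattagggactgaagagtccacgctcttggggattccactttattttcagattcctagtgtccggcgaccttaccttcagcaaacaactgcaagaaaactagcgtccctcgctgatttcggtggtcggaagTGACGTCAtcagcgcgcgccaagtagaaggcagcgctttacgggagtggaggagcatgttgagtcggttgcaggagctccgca
Rcan1, chr11:45118187-45118486, - strand: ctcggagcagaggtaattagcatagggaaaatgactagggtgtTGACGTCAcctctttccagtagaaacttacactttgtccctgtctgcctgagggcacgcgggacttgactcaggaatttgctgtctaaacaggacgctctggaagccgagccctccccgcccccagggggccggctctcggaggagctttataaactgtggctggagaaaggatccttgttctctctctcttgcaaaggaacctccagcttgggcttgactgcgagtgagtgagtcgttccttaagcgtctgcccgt
Counted from the start site, the match begins at base -33 in Snapc5 and at base -207 in Rcan1. For the E-box CACGTG the shares were 9.23% of the genes that rose, 13.8% of those that fell and 9.57% of those tested. For the ETS core CCGGAAG, sought on both strands, they were 13.8%, 19.0% and 17.9%. For the NRF1 core GCGCATGCG, also on both strands, they were 4.62%, 1.72% and 3.44%. A match is a string of letters in this window and says nothing of binding.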

How the data were processed

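RNA of 24 rat forebrain samples was measured on Affymetrix arrays, 1 rat per array. The deposited values are intensity, 1 linear signal per probe set, made with GCOS per the submitters' processing notes; for its version and scaling, nothing is given in the sources used here. Array medians of log2(intensity + 16) spanned 0.73, so 23 arrays were quantile normalized together, without Animal 251 (500 mg/kg). Of 31099 probe sets, 57 controls and the dimmest 40% by mean were left out, leaving 18625 with a mean of at least 5.99. Symbols came from the platform annotation: 20832 probe sets carry 1 symbol, 436 several (unnamed here) and 9831 none. They were updated against RefSeq through the Entrez ID (20764) or accession (2), or kept (66). A gene stands for its brightest probe set.

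One model of 6 group means over the 23 arrays was fitted in limma 3.58.1 (R 4.3.3) with an intensity trend, and tested on simulated data. P-values were adjusted by Benjamini-Hochberg over all probe sets tested, and a gene rose or fell where the adjusted p was under 0.05. Errors of differences are SE. A fold change on this scale understates that of dim probe sets. The number of arrays, 4 against 4, limits the precision; the median SE was 0.13. The labels name a separate animal for each array, and replicate numbers only name arrays in accession order. No 2 arrays held identical values, and 0 value columns lacked a sample. Scan and labelling dates were not used here, so no batch was tested.

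Named are the 15 largest rises and falls among called genes, the 5 smallest p, up to 3 members of each gene list by smallest p, and a panel of D-serine, activity and cell type genes whatever their values. Genes outside that rule (Srsf2 and list members given by range) are named after their values were seen. Comparison, lists and rule were chosen with earlier results of these data known. Alternatives were other filters, pseudocounts, scalings and moderation, array weights, RNA ratios as covariates, 1 probe set per gene, only the 8 arrays, and leaving out each array.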

Additional observations from a re-analysis of the deposited data

Results flagged for a closer look

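Of 170 sets of 4 arrays looked at, 10 held 1 array far from the other 3, with a gap to the nearest that took up most of the whole range. Chance alone gives about 1 such set in 20. At 20 mg/kg Rbm27 measured 6.81 on 1 array and 7.13 to 7.19 on the others, Mdga2 7.74 against 7.55 to 7.57, and Cacng8 7.11 against 6.75 to 6.79. Also at 20 mg/kg, Enpp2 measured 8.19 on 1 array against 8.91 to 9.02 on the others, F5 5.51 against 5.73 to 5.74, Lpar1 8.58 against 9.12 to 9.18 and Scn3a 7.87 against 8.05 to 8.08. At 200 mg/kg Egr1 measured 10.58 on 1 array against 11.08 to 11.17 on the others, Olig1 9.28 against 9.97 to 10.09, and Hbb 12.34 against 9.61 to 9.94. Their causes were not tested.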

How the results depend on the processing

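With 577 probe sets called, 84 genes higher and 72 lower at 20 against 200 mg/kg, and 357 probe sets called in 5 minus 500 mg/kg, the same 4 counts were 64, 36, 28 and 26 with 1 probe set per gene (fewer tested), 271, 32, 22 and 739 with Animal 251 kept, 1494, 264, 245 and 927 with array weights, and 9726, 5567, 2 and 2192 on the deposited scale. They were 0 in all 4 with the Gapdh or the beta-actin ratio as a covariate. Genes lower were 27 with median centring, where 81.3% of calls were higher. Fitting only the 8 arrays called 271 probe sets, 36 genes higher and 18 lower (fewer samples). Without both arrays high in Ttr, chosen after seeing the data, these were 214, 27 and 20. The share of called genes with the same sign in 5 minus 500 mg/kg, 96.2%, was 100% with Animal 251 kept and 98.9% on the deposited scale. The cause of the other changes was not tested.

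Leaving out 1 array gave 206 to 703 probe sets, 26 to 113 genes higher, 17 to 94 lower and a same-sign share of 95.3% to 98.9%. Without replicate 2 or 3 of the 20 mg/kg group 310 and 263 probe sets were called, and without replicate 1 or 2 of the 200 mg/kg group 206 and 228. Of 47 named called genes 20 stayed called in all 8 such fits. The beta-actin ratio difference ranged from -0.869 to -0.720 and that of Gapdh from -0.443 to -0.311, where 3 against 4 arrays cannot give an exact permutation p below 0.0571. Among the 47 named called genes signs reversed only on the deposited scale, where the median shift was 0.41, for Aplp1 (0.0345), Camk2a (0.0450), Shank1 (0.0434), Ddx5 (0.0930) and Srsf2 (0.216). No fit of 5 minus 500 mg/kg was run on only the 8 arrays, and no same-sign share exists where 0 genes were called. No paired analysis was possible because the labels give no replicate numbers or pairing of rats.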
